A study of Oryctolagus cuniculus with 27 samples.

Results

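The genes described here carry out fatty acid oxidation and uncoupling, and were followed in 3 tissues (aortic valve, ascending aorta, left ventricular myocardium) from rabbits fed a diet that is used to provoke early aortic valve stenosis. The list names 34 genes by function and was drawn up with earlier results of these data known. Of these, 33 were found among the 31346 genes that all 3 full count tables hold: 32 by their symbols and ACADS by its RefSeq gene number. ETFB was not analysed here.

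Bulk RNA was sequenced from 27 libraries of male New Zealand rabbits, labelled wild type, and reads were counted per gene. The diet held 1% cholesterol and 3500 IU of ergocalciferol (vitamin D2), and controls ate normal chow. Aortic valve cusps, 1 cusp per animal, came from controls (n = 4) and from animals after 2, 4 and 7 weeks of diet (n = 4 each). Ascending aorta came from diet (n = 2) and control (n = 3) animals and left ventricular myocardium from diet (n = 3) and control (n = 3) animals, with no duration of diet on the labels. How long the valve controls were kept is unclear: the series text describes a pool from 2 and 4 weeks, but by title 3 of the 4 are from 7 weeks and 1 is from 2 weeks. Each library of a group carries its own animal number. By these numbers all 3 diet myocardia came from 7-week valve animals, 2 control myocardia from control valve animals and 1 diet aorta from a 2-week valve animal, and the main tests treated these libraries as independent.

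Fatty acids that enter a cell are held by fatty acid binding proteins, joined to coenzyme A and carried across the inner mitochondrial membrane as carnitine esters. There the chain is shortened by repeated rounds of dehydrogenation, hydration, a second dehydrogenation and thiolysis, and the electrons pass through the electron transfer flavoprotein to the respiratory chain. Peroxisomes shorten very long and branched chains by a parallel route. Heart muscle draws most of its energy from this pathway, under the control of the PPAR nuclear receptors and their coactivator PGC-1 alpha. UCP2 and UCP3 are mitochondrial inner membrane carriers named after the uncoupling protein of brown fat, and UCP2 is well known from macrophages and other immune cells.

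Library totals ran from 8458433 to 19998949 counts in valve, 11509598 to 16107404 in aorta and 13954419 to 17322360 in myocardium. Levels are CPM, counts scaled to a common library size. All 9 valve interstitial and fibroblast markers averaged over 1 CPM in every valve group, and all 17 cardiomyocyte markers did so in every tissue. In valve the cardiomyocyte markers made up 2.59 ± 1.42% of counts among controls, then 0.369 ± 0.167% after 2 weeks, 1.14 ± 0.614% after 4 and 2.7 ± 1.94% after 7 (SD, n = 4 each). In control myocardium they made up 10.7 ± 1.79% and in control ascending aorta 0.161 ± 0.0135% (SD, n = 3 each). The 4 atrial muscle markers, on a list of their own, went another way, at 0.000973% among control valves, then 0.0179% after 2 weeks, 0.237% after 4 and 0.196% after 7. Heart muscle transcripts were thus present in each valve group. The cardiomyocyte list was lowest at 2 weeks and the atrial list in controls. In bulk tissue, fewer cells of a type and less RNA per cell cannot be told apart. None of the 33 genes was among the 346 that the authors took out of their second valve table as myocardial.

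CPM below use scaling factors fitted over all 27 libraries and are not compared between genes. Fold changes are log2, each with its standard error (SE). A gene was called when edgeR's quasi-likelihood test gave a Benjamini-Hochberg adjusted p under 0.05 over all genes tested.

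The largest numbers of calls were between tissues. Of the 33 genes, 25 were lower and 1 was higher in control valve than in control myocardium. Among all 17161 genes tested in that comparison, 44.8% were called, 21.5% lower and 23.3% higher. The median log2 fold change of the 33 genes was -1.21, against 0.02 for all genes. In control ascending aorta 27 genes were lower and 2 higher than in control myocardium, where 51.8% of all genes were called, 25.4% lower and 26.4% higher. Their median was -2.35, against 0.03 for all genes. Control valve lay above control aorta for 18 genes and below it for 1, where 23.8% of all genes were called, 14% higher and 9.8% lower, and the median of the 33 genes was 1.2. By these medians the genes were lowest in aorta and highest in myocardium, with valve between, while the peroxisomal genes split. The share of cardiomyocyte markers, given above, had the same order in these controls, and its part in the differences was not tested. Some aorta and myocardium libraries carry the same sequencing numbers as valve libraries. If valves were sequenced apart from the other tissues, run and tissue cannot be told apart in the comparisons with valve.

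**Figure D1:**
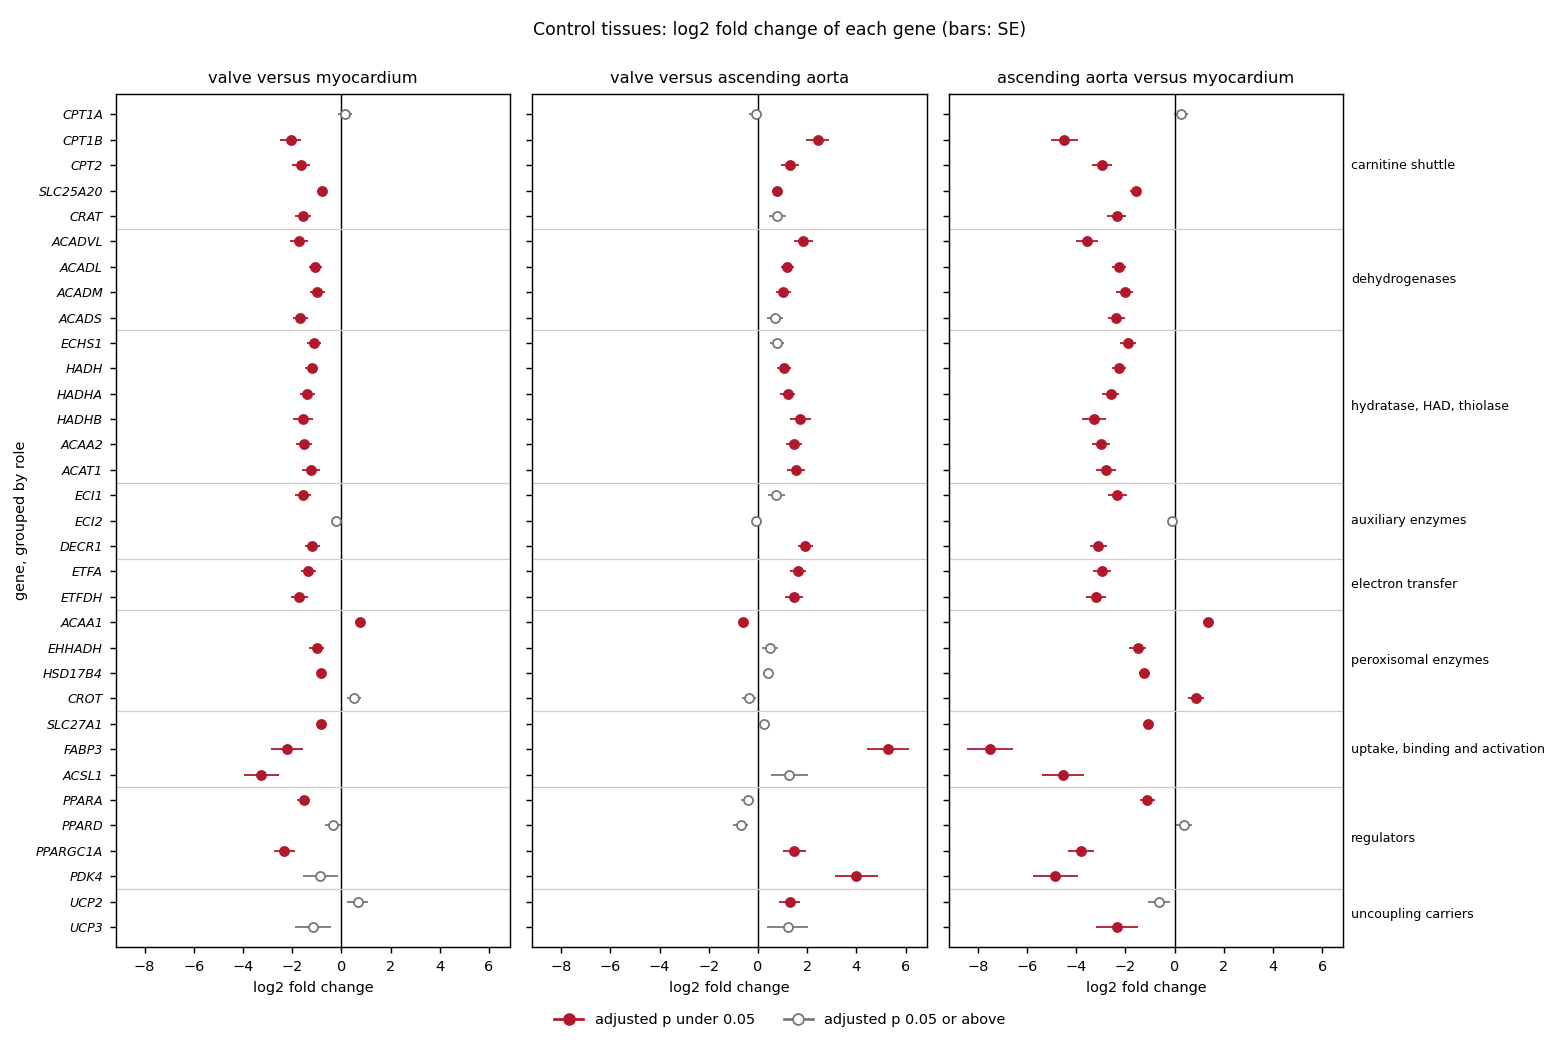
Log2 fold change with SE of each gene between control tissues, by role, in the joint fit of 27 libraries; filled red points passed the adjusted p threshold of 0.05. The 25 genes lower in valve than in myocardium and the 27 lower in aorta than in myocardium lie left of 0, and ACAA1 lies right of 0 in both.

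The carnitine shuttle showed the contrast between isoforms of its first enzyme. CPT1B, the muscle form of the outer membrane carnitine palmitoyltransferase, had 86.1, 46.7, 205 and 99.3 CPM in control valves, 26.2, 19.1 and 15.7 CPM in control aortas and 450.3, 611 and 308 CPM in control myocardia. The 3 tissues did not overlap. CPT1B was lower in valve than in myocardium (log2 fold change -2.06 ± 0.443, adjusted p = 0.000678), and 2.42 ± 0.483 higher in valve than in aorta (adjusted p = 0.00131). CPT1A, the liver form, had 44.3, 51.4, 54.0 and 31.9 CPM in control valves, 40.7, 60.2 and 44.4 CPM in control aortas and 20.4, 57.9 and 44.0 CPM in control myocardia. These ranges overlapped, and the fold change of valve over myocardium was 0.16 ± 0.272 (adjusted p = 0.673). CPT2, the inner membrane transferase, SLC25A20, the carnitine-acylcarnitine translocase, and CRAT, which handles short acyl groups, were lower in valve than in myocardium, at 32%, 57.4% and 33.8% of its level.

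All 4 acyl-CoA dehydrogenases, which catalyse the first step of each round on chains of different length, were called lower in valve than in myocardium. ACADVL, for very long chains, had 166, 103, 325 and 203 CPM in control valves, 59.5, 53.4 and 54.6 CPM in control aortas and 643, 771 and 552 CPM in control myocardia. The tissues did not overlap, and valve stood at 30.4% and aorta at 8.51% of the myocardial level. ACADL, ACADM and ACADS, for long, medium and short chains, stood at 47.9%, 50.6% and 31.6% in valve and at 20.9%, 24.7% and 19.5% in aorta.

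All 6 enzymes of the hydration, second dehydrogenation and thiolysis steps were lower in valve than in myocardium as well, between 34.2% for HADHB and 46.5% for ECHS1. HADHA and HADHB are the subunits of the trifunctional protein, ECHS1 is the short-chain hydratase, HADH the short-chain hydroxyacyl dehydrogenase, and ACAA2 and ACAT1 are mitochondrial thiolases. HADHB had 177, 109, 309 and 192 CPM in control valves, 55.1, 62.6 and 61.6 CPM in control aortas and 781, 716 and 229 CPM in control myocardia. Valve and myocardium overlapped through myocardium control 3, and aorta lay below both. Of the auxiliary enzymes that prepare unsaturated chains, DECR1 and ECI1 stood at 44.4% and 33.6% of myocardium in valve, and ECI2, which also acts in peroxisomes, at 87.2% and was not called (adjusted p = 0.231). ETFA, the subunit of the electron transfer flavoprotein found here, and ETFDH, which passes its electrons to ubiquinone, stood at 39.4% and 30.5% in valve and at 12.9% and 11% in aorta.

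The 4 peroxisomal genes split. ACAA1, the peroxisomal thiolase, had 44.5, 59.5, 38.4 and 43.8 CPM in control valves, 71.9, 64.0 and 76.5 CPM in control aortas and 22.7, 27.5 and 31.6 CPM in control myocardia. The 3 tissues did not overlap, with aorta highest. ACAA1 was higher by 0.77 ± 0.204 in valve than in myocardium (adjusted p = 0.00385), higher by 1.38 ± 0.217 in aorta than in myocardium (adjusted p = 1.37e-05) and lower in valve than in aorta, with a log2 fold change of -0.60 ± 0.197 (adjusted p = 0.0298). That last call was lost when library totals replaced the scaling factors (adjusted p = 0.128) and in 5 of 7 fits that left out 1 library. CROT, which makes carnitine esters of medium chains for export from peroxisomes, was higher by 0.87 ± 0.309 in aorta than in myocardium (adjusted p = 0.0214). Without aorta control 1 or myocardium control 1 it was not called (0.80, adjusted p = 0.0627, and 0.53, adjusted p = 0.156). EHHADH, the L-bifunctional enzyme, and HSD17B4, the D-bifunctional enzyme, were lower in valve than in myocardium, at 49.9% and 57.1%.

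Genes that supply the pathway differed widely. FABP3, the heart-type fatty acid binding protein, had 158, 44.3, 280.4 and 240.5 CPM in control valves, 3.06, 4.68 and 6.04 CPM in control aortas and 764, 945 and 804 CPM in control myocardia. No tissue overlapped with another. Valve was 39.2-fold above aorta (log2 fold change 5.29 ± 0.843, adjusted p = 0.000262), and aorta stood at 0.549% of myocardium. ACSL1, the long-chain acyl-CoA synthetase of heart and liver, had 4.95, 3.37, 18.9 and 2.7 CPM in control valves, 3.50, 4.36 and 1.28 CPM in control aortas and 87.6, 117 and 9.37 CPM in control myocardia. Its valve and myocardium ranges overlapped through valve control 3 and myocardium control 3, and the fold change of valve over myocardium was -3.26 ± 0.713 (adjusted p = 0.000799). SLC27A1, a fatty acid transport protein of the plasma membrane, stood at 56.0% of myocardium in valve.

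Among the regulators, PPARGC1A, which encodes PGC-1 alpha, had 13.9, 5.88, 27 and 13.3 CPM in control valves, 4.90, 6.67 and 4.51 CPM in control aortas and 84.4, 92.2 and 47.4 CPM in control myocardia. Valve lay below every myocardium library (log2 fold change -2.32 ± 0.435, adjusted p = 0.000191) and overlapped with aorta. PPARA, the receptor that drives oxidation genes in heart and liver, was lower in valve than in myocardium by a log2 fold change of -1.53 ± 0.279 (adjusted p = 0.000135). PPARD, the more widely expressed receptor, was not called in any tissue comparison, with fold changes between -0.70 and 0.37. PDK4, the kinase that shuts pyruvate out of the citric acid cycle, spread widely within tissues: 240.4, 20.6, 189.9 and 61.5 CPM in control valves, 8.39, 10.3 and 5.36 CPM in control aortas and 42.2, 420.0 and 234 CPM in control myocardia. Valve lay above aorta throughout (log2 fold change 3.99 ± 0.867, adjusted p = 0.00244) and overlapped with myocardium (-0.86 ± 0.719, adjusted p = 0.347).

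UCP2 was not called between valve and myocardium with all libraries. It had 22.2, 13.5, 13.1 and 18.5 CPM in control valves, 8.04, 5.13 and 7.58 CPM in control aortas and 5.67, 8.47 and 17.6 CPM in control myocardia. Valve lay above aorta in all libraries (log2 fold change 1.29 ± 0.430, adjusted p = 0.0329), a call lost in 5 of 7 fits that left out 1 library and with the animal as a block in limma-voom (1.34 ± 0.516, adjusted p = 0.0672). Valve and myocardium overlapped (0.66 ± 0.416, adjusted p = 0.205), and UCP2 was called there without myocardium control 3 (1.19 ± 0.464, adjusted p = 0.0422). UCP3, the skeletal muscle form, was low everywhere, with 2.32, 0.381, 2.60 and 0.98 CPM in control valves, 0.874, 0.642 and 0.511 CPM in control aortas and 0.372, 4.62 and 5.32 CPM in control myocardia, and was called only as lower in aorta than in myocardium (-2.35 ± 0.852, adjusted p = 0.0243), a call lost in 4 of 6 fits that left out 1 library and with the animal as a block in limma-voom (-1.80, adjusted p = 0.194).

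**Figure D2:**
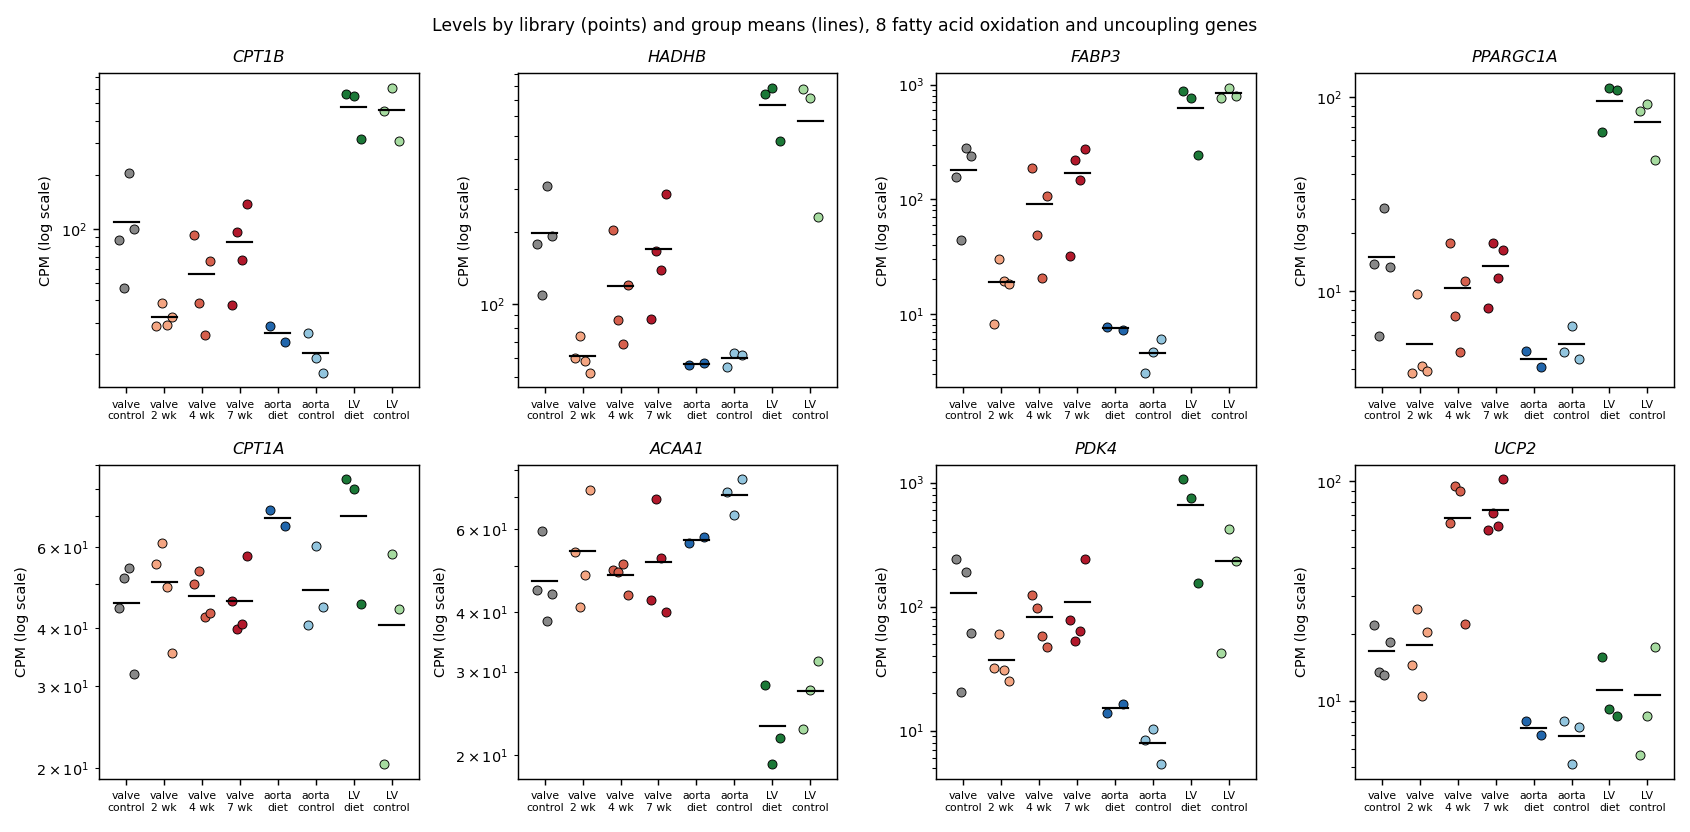
CPM (log axis) of 8 genes in each of the 27 libraries, with group means as lines; LV is left ventricular myocardium. CPT1B, HADHB, FABP3 and PPARGC1A are lowest among valve groups at 2 weeks and highest in myocardium, ACAA1 is lowest in myocardium, and UCP2 is high in 7 of the 8 valves at 4 and 7 weeks.

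The first question on diet was whether oxidation genes differ in valves after each duration. After 2 weeks, 28 of the 33 genes had negative fold changes against control, with a median of -0.92 against 0.02 for all genes. In all 4 libraries, 13 of the 33 lay below every control library, as did 6.05% of all genes. None passed the adjusted threshold in edgeR's quasi-likelihood test, in which 0.025% of all genes were called (0.0188% higher, 0.00626% lower), while 20 of 33 members and 16.4% of all genes had an unadjusted p under 0.05. The smallest adjusted p was 0.0662. DESeq2 called 13 of the 33 as lower, against 3.68% of all genes. A fit of these 2 groups alone called 7, against 2.23% of all genes as lower. Of 8 edgeR fits that left out 1 library, only that without control valve 2 called any member. It called 12, against 2.46% of all genes as lower. Control valve 2 had the lowest share of cardiomyocyte markers among controls, 1.06%. An edgeR fit with the replicate number as a block called no gene at all.

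FABP3 had 8.14, 30.1, 19.2 and 18.3 CPM at 2 weeks, against 158, 44.3, 280.4 and 240.5 CPM in control valves. HADHB had 59.9, 74.2, 58.1 and 51.9 CPM at 2 weeks, against 177, 109, 309 and 192 CPM in controls. ACAT1 had 75.7, 86.9, 91.2 and 79.9 CPM at 2 weeks, against 191, 107, 330.4 and 248 CPM in controls. All 3 genes were below every control at 2 weeks, where the libraries lay close together for HADHB and ACAT1 and spread widely for FABP3. The fold changes of 2 weeks over control were -3.24 ± 0.752 for FABP3, -1.68 ± 0.389 for HADHB and -1.38 ± 0.380 for ACAT1, with adjusted p of 0.0662, 0.0662 and 0.086. At 2 weeks HADHB averaged 61.0 ± 9.42 CPM (SD, n = 4), close to its 59.8 ± 4.07 CPM in control aorta (SD, n = 3), 2 values that were not tested against each other. Other members were placed differently: FABP3, CPT1B and ACADVL lay above every control aorta in all 4 libraries of 2 weeks.

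By role, the medians at 2 weeks over control were -1.02 for the carnitine shuttle, -0.96 for the dehydrogenases, -1.01 for the hydratase to thiolase steps, -1.17 for electron transfer and -0.02 for the peroxisomal enzymes. CPT1A at 0.15, ACAA1, CROT, PPARD and UCP2 were the 5 with positive values. The 2-week valves also had the lowest share of cardiomyocyte markers. With that share as a covariate (the log2 sum of the markers, called the cardiomyocyte score) the median of the 33 genes was 0.16. HADHB was then -0.20 ± 0.374 and FABP3 -0.21 ± 0.609, and no gene at all was called over control. The share ran from 0.187 to 0.575% in 2-week valves and from 1.06 to 4.48% in control valves. With no overlap between them, score and group can hardly be told apart in this fit, and the part of heart muscle was not tested.

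After 4 weeks 27 of 33 genes had negative fold changes (median -0.51), and 1 was called, UCP2, as higher. Among all genes 2% were called, 1.94% higher and 0.0563% lower. After 7 weeks 23 of 33 were negative (median -0.15) and UCP2 was again the 1 call, against 7.79% of all genes called, 5.2% higher and 2.6% lower. FABP3 had 32.1, 221, 149 and 275 CPM at 7 weeks, so that replicate 1 lay below every control and the others inside the control range.

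UCP2 was the 1 gene of the 33 called over control valve, as higher at 4 and 7 weeks. It had 22.2, 13.5, 13.1 and 18.5 CPM in control valves, 14.5, 26, 10.4 and 20.6 CPM at 2 weeks, 64.1, 95, 89.8 and 22.3 CPM at 4 weeks and 60.0, 71.4, 62.3 and 102 CPM at 7 weeks. Controls and 2 weeks overlapped, all 7-week libraries lay above both, and at 4 weeks replicate 4 stayed near the top of the control range. The log2 fold change over control was 0.10 ± 0.372 at 2 weeks, 2.00 ± 0.382 at 4 weeks (adjusted p = 0.0192) and 2.16 ± 0.384 at 7 weeks (adjusted p = 0.00686). Against 2 weeks, UCP2 was higher by 1.91 ± 0.380 at 4 weeks (adjusted p = 0.0125), where 4.36% of all genes were called, 3.14% higher and 1.23% lower, and UCP2 was the only member. That call was lost in the fit of these 2 groups alone (adjusted p = 0.0663) and without 2-week replicate 1 or 3 (adjusted p = 0.0517 and 0.0504). RN18S, the 18S ribosomal RNA, took 0.282 to 0.516% of counts in 4-week valves, apart from the 1.36 to 1.97% at 2 weeks. That share overlapped with those of controls (0.476 to 2.06%) and of 7 weeks (0.510 to 2.20%). With that share as a covariate UCP2 was not called at 4 weeks, neither over 2 weeks (1.45 ± 0.648, adjusted p = 0.447) nor over control (1.72 ± 0.522, adjusted p = 0.544), and its part was not tested. The 4-week call over control was lost in the fit of these 2 groups alone (adjusted p = 0.105), and with the cardiomyocyte score as a covariate (adjusted p = 0.0948). Leaving out 1 library at a time ended it for 4-week replicates 2 and 3 and controls 2, 3 and 4, with fold changes of 1.79 to 2.29 over all 8 such fits. The call at 7 weeks over control held in all 8 fits that left out 1 library, between 1.98 and 2.30.

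Macrophage markers moved with UCP2. The 14 markers made up 0.0258 ± 0.00762% of counts among controls, then 0.0225 ± 0.00877% after 2 weeks, 0.121 ± 0.0652% after 4 and 0.112 ± 0.0188% after 7 (SD, n = 4 each). All 14 averaged over 1 CPM in every valve group. Their summed level ran from 205 to 370 CPM of library totals in controls, 131 to 310 CPM at 2 weeks, 410 to 1879 CPM at 4 weeks and 938 to 1366 CPM at 7 weeks. The 4-week library lowest in UCP2, replicate 4, was also lowest in macrophage markers, at 0.0410%. Across the 16 valve libraries with group in the model, UCP2 rose by 0.95 ± 0.105 on the log2 scale per doubling of the macrophage markers (adjusted p = 0.00105), a slope chosen for testing after the UCP2 values were seen. It was the only member called, against 1.62% of all genes called, 1.54% higher and 0.0751% lower, and the median slope of the 33 genes was -0.15. With the macrophage score as a covariate UCP2 was no longer called over control at 4 or 7 weeks, at -0.094 and 0.16, and neither was any other gene. The macrophage markers of controls did not overlap with those of 4 or 7 weeks, so score and group can hardly be told apart in that fit. The part of macrophages in the level of UCP2 was not tested.

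**Figure D3:**
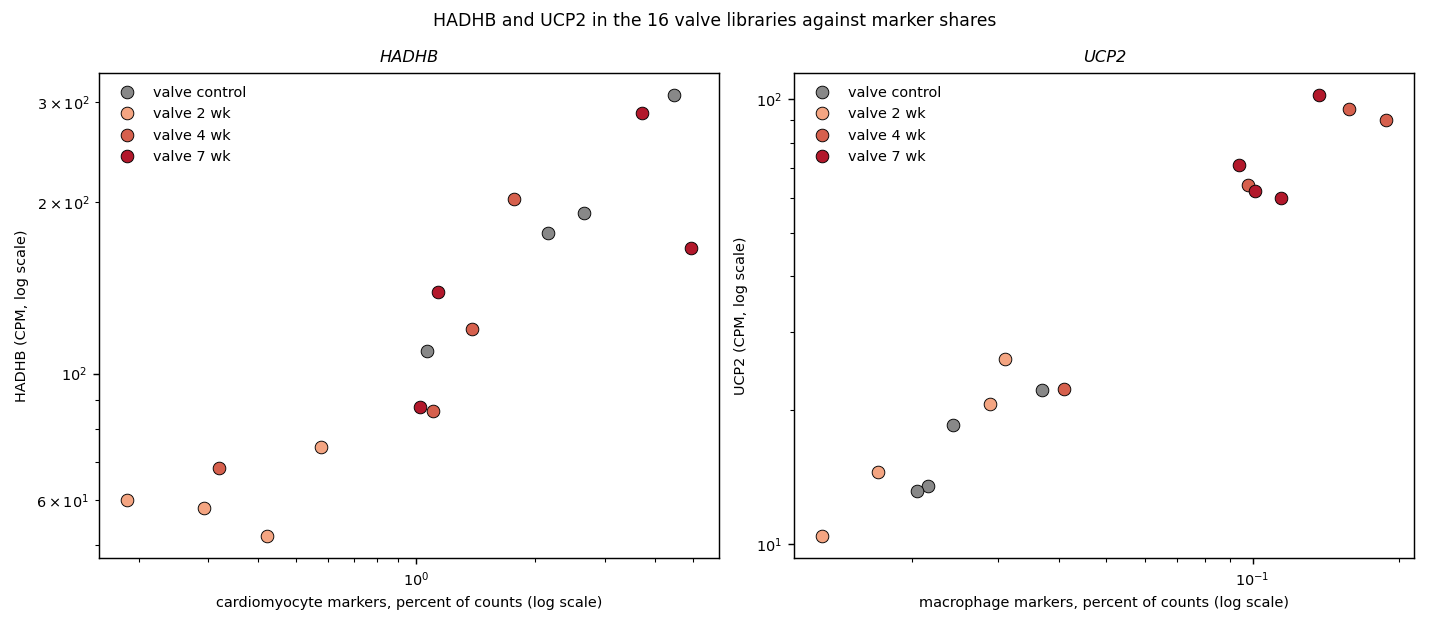
HADHB against the share of cardiomyocyte markers (left) and UCP2 against the share of macrophage markers (right) in the 16 valve libraries, all axes logarithmic. HADHB is low where cardiomyocyte markers are low, as in the 2-week libraries, and UCP2 is high in the 7 libraries of 4 and 7 weeks with the largest macrophage share.

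UCP3 had 0.971, 1.38, 0.460 and 0.580 CPM at 2 weeks, 2.51, 3.20, 3.37 and 0.992 CPM at 4 weeks and 2.54, 2.73, 2.48 and 7.64 CPM at 7 weeks. All 7-week libraries exceeded all 2-week libraries (log2 fold change 2.20 ± 0.593, adjusted p = 0.0151), while the 1.33 ± 0.571 over control at 7 weeks was not called (adjusted p = 0.155). UCP2 and UCP3 are next to each other in the RefSeq annotation of the rabbit assembly mOryCun1.1. The sources used here give neither strand setting nor annotation, and whether reads of one gene were counted for the other was not tested.

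Over the course of diet, the largest number of member calls was between 7 and 2 weeks. At 7 weeks 16 of the 33 genes were higher than at 2 weeks and 0 lower, where 26.7% of all genes were called, 14.5% higher and 12.2% lower. The median of the 33 was 0.93, against 0.02 for all genes, and 6 genes were higher in every 7-week library than in every 2-week library, as were 12.5% of all genes. The 6 were HADHB, ACAA2, ETFDH, FABP3, UCP2 and UCP3. Between 7 and 4 weeks no member was called, 0.1% of all genes were, and 2 members had an unadjusted p under 0.05, ECI1 and ECHS1, as did 12% of all genes. DESeq2 called 0 members there too, and 1.08% of all genes.

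FABP3 had 32.1, 221, 149 and 275 CPM at 7 weeks, against 8.14, 30.1, 19.2 and 18.3 CPM at 2 weeks. HADHB had 87.2, 167, 139 and 287 CPM at 7 weeks, against 59.9, 74.2, 58.1 and 51.9 CPM at 2 weeks. Both were higher in all 4 later libraries, by the least in replicate 1. FABP3 rose by 3.18 ± 0.750 (adjusted p = 0.00801) and HADHB by 1.5 ± 0.387 (adjusted p = 0.0122). CPT1B rose by 1.41 ± 0.462 (adjusted p = 0.0347), with 37.6, 96.2, 67.2 and 137 CPM at 7 weeks against 28.8, 38.8, 29 and 32.5 CPM at 2 weeks, a small overlap.

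The other calls were spread over most mitochondrial roles. ACADVL and ACADS of the dehydrogenases, 5 of the 6 hydratase to thiolase genes, ECI1 and DECR1 of the auxiliary enzymes and both electron transfer genes rose, by 0.88 for HADHA to 1.5 for HADHB. PPARGC1A rose by 1.34 ± 0.476 (adjusted p = 0.0479). None of the 4 peroxisomal genes was called, with values between -0.05 and 0.10, and PPARA (-0.20) and PPARD (-0.35) were not called.

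Several marker lists moved between the same groups. Cardiomyocyte markers made up 2.7 ± 1.94% of counts at 7 weeks and 0.369 ± 0.167% at 2 weeks. The 6 smooth muscle markers went the other way, at 1.08 ± 0.377% at 7 weeks and 3.74 ± 0.730% at 2 weeks, with no overlap between the libraries (0.661 to 1.43% against 2.84 to 4.42%). Macrophage markers were higher at 7 weeks, as given above, and the 3 erythroid markers found took 0.00384 to 0.0177% of counts at 7 weeks and 0.000841 to 0.00217% at 2 weeks. The part of these cell types in the differences was not tested separately from duration. With the cardiomyocyte score as a covariate 0 of 33 genes were called between 7 and 2 weeks, against 1.27% of all genes, and the median of the 33 genes was -0.24. With the macrophage score as a covariate no gene at all was called. DESeq2 with group alone called 19 members as higher, against 15.7% of all genes. The count fell to 5 without 7-week replicate 2 or 4 or 2-week replicate 1 or 3, and to 6 without 2-week replicate 4, while between 2626 and 3845 of all genes were called in these fits, against 4261 with all libraries. The 7-week libraries carry a block of sequencing numbers apart from those of all other valve libraries. If these were separate runs, run and duration cannot be told apart.

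**Figure D4:**
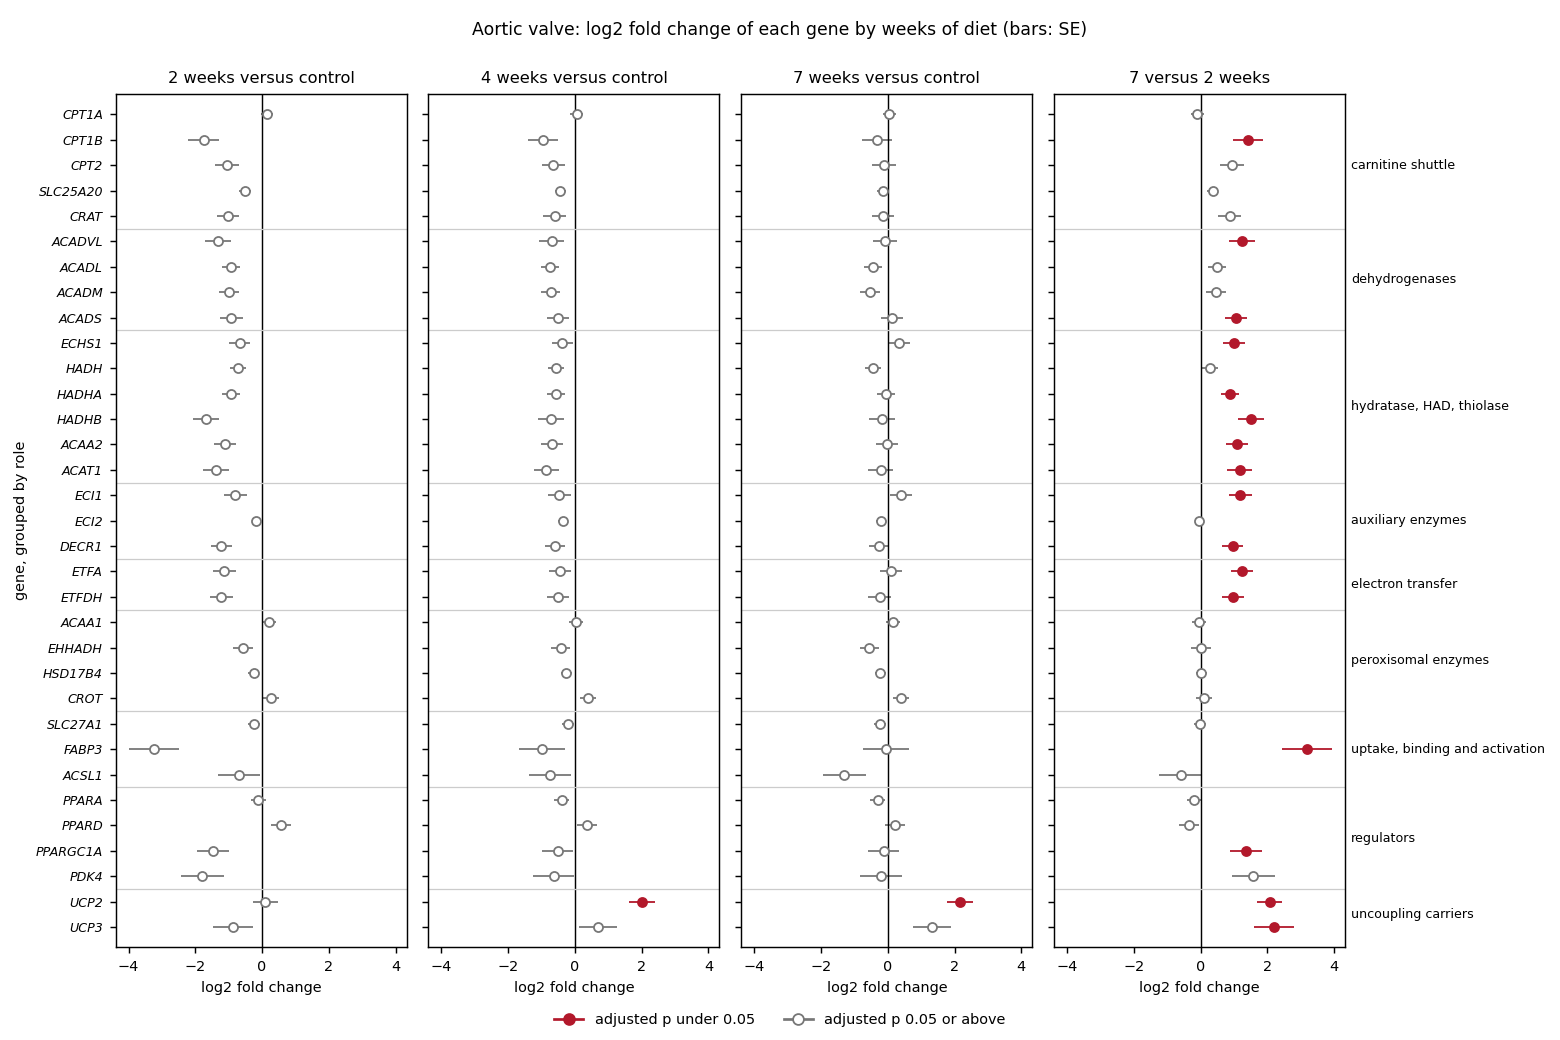
Log2 fold change with SE of each gene in valves at 2, 4 and 7 weeks over control and at 7 over 2 weeks, by role; filled red points passed the adjusted p threshold of 0.05. UCP2 is the only called gene over control at 4 and 7 weeks, and 16 genes are called at 7 over 2 weeks.

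How closely each gene follows heart muscle transcripts was measured among the 16 valve libraries, with group in the model. Of the 33 genes 19 rose with the cardiomyocyte score and 0 fell, against 5.85% of all genes called, 4.93% higher and 0.914% lower. The median slope was 0.37 on the log2 scale per doubling of the markers, against -0.02 for all genes. FABP3 had the steepest slope, 1.06 ± 0.176 (adjusted p = 0.00213), followed by CPT1B at 0.67 ± 0.102 (adjusted p = 0.00121) and PPARGC1A at 0.66 ± 0.11 (adjusted p = 0.00217). The called genes took in all 4 dehydrogenases, all 6 hydratase to thiolase genes and both electron transfer genes.

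Genes with no called slope were CPT1A (0.04 ± 0.0793), SLC25A20, ECI2, the 4 peroxisomal genes, SLC27A1, ACSL1, PPARA, PPARD, PDK4 and both uncoupling carriers. UCP2 had a slope of 0.06 ± 0.158 (adjusted p = 0.885). The slopes were ordered as the tissues were. Across the 33 genes, the slope among valve libraries and the log2 fold change of control aorta over control myocardium had a Pearson r of -0.95 and a Spearman rho of -0.94. This is a description across genes, which share their libraries within each measure and are not independent. The 2 measures compare different libraries, but 2 control myocardia came from control valve animals. The tissue difference also came from the joint fit that held the valve libraries. All 19 genes with a called slope were called lower in aorta than in myocardium, as were 8 of the other 14 and 25.4% of all genes. Neither the correlation nor the share lower in aorta among genes with a called slope was taken over all genes. Whether these 33 genes differ in this from other genes abundant in heart muscle was therefore not tested.

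**Figure D5:**
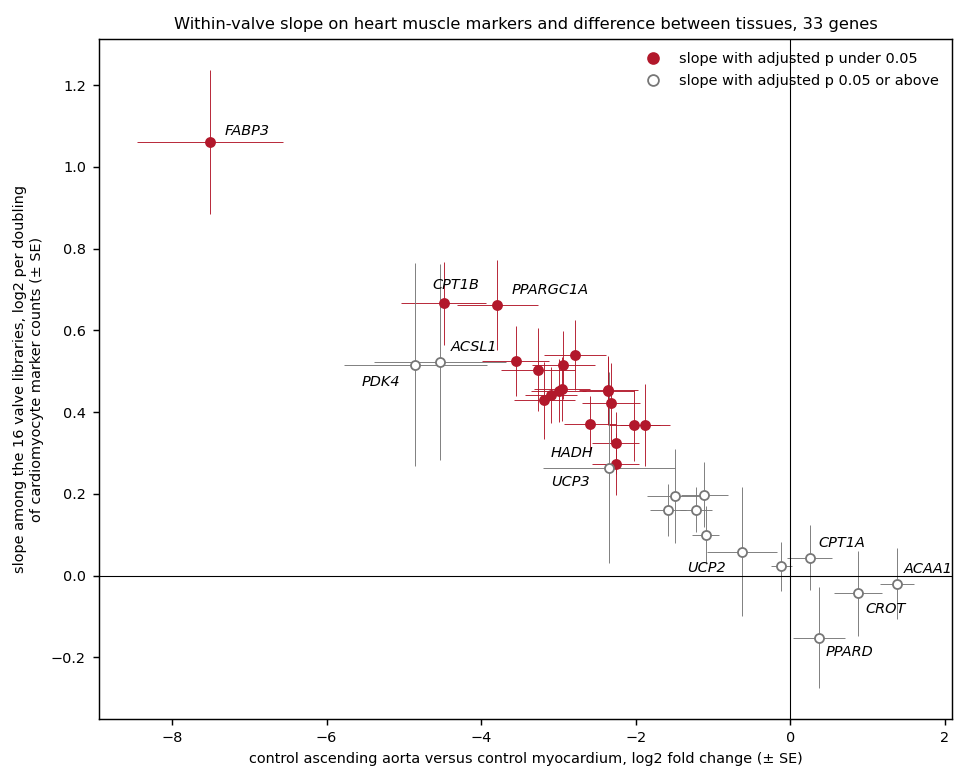
Slope of each gene on the cardiomyocyte score among 16 valve libraries (log2 per doubling, with SE) against its log2 fold change of control ascending aorta over control myocardium (with SE); filled red points have a called slope. Genes much lower in aorta than in myocardium, such as FABP3 and CPT1B, have the steepest slopes, and ACAA1, CROT and CPT1A lie near 0.

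Ascending aorta after diet was compared with its controls to see whether the artery next to the valve responds. By animal number diet aorta 1 came from a 2-week valve animal, and the duration of diet for diet aorta 2 is not known. No member was called by edgeR's quasi-likelihood test, 0.159% of all genes were (0.132% higher, 0.0277% lower), and 7 members had an unadjusted p under 0.05, as did 12.2% of all genes. CROT came closest. It had 3.27 and 4.65 CPM in diet aortas, against 14.7, 12.3 and 12.9 CPM in control aortas. Both diet libraries lay below every control, with a log2 fold change of -1.78 ± 0.232 and an adjusted p of 0.0724. DESeq2 called CROT as the 1 member (-1.78, adjusted p = 1.2e-06), with 2.41% of all genes called. So did edgeR without aorta control 2 (-1.85, adjusted p = 0.0407), with 2.03% of all genes called.

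CPT2 had 4.66 and 3.12 CPM in diet aortas against 7.34, 6.93 and 7.58 CPM in control aortas (-0.93 ± 0.245, adjusted p = 0.257). PDK4 had 13.8 and 16.5 CPM in diet aortas against 8.39, 10.3 and 5.36 CPM in control aortas (0.88 ± 0.275, adjusted p = 0.311). Neither overlapped and neither was called. With 2 diet libraries, 8 members lay higher and 5 lower in both than in all controls, as did 19.8% and 14% of all genes. UCP2 had 8.06 and 6.94 CPM in diet aortas against 8.04, 5.13 and 7.58 CPM in control aortas, which overlapped. Macrophage markers took 0.00842 ± 0.000158% of counts in diet aortas (SD, n = 2) and 0.00997 ± 0.00179% in control aortas (SD, n = 3). The groups did not overlap in this list, nor in 4 others. The summed level of the 4 atrial muscle markers was 103 and 112 CPM of library totals in diet aortas, against 0.782 to 1.99 CPM in control aortas. The 7 adipocyte markers found summed to 49.7 and 50.5 CPM in diet aortas, against 86.9 to 271 CPM in control aortas. The 8 endothelial markers summed to 99.0 and 99.7 CPM in diet aortas, against 111 to 314 CPM in control aortas. The 3 erythroid markers found summed to 4.90 and 5.88 CPM in diet aortas, against 0.931 to 4.69 CPM in control aortas. Cardiomyocyte, smooth muscle and fibroblast markers overlapped, and the part of these cell types in the values above was not tested.

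In myocardium no member was called either, where 0.0848% of all genes were (0.0424% higher, 0.0424% lower), and 0 members had an unadjusted p under 0.05, against 8.85% of all genes. DESeq2 also called 0, and 1.93% of all genes. The median of the 33 genes was 0.14 and 25 were positive. PDK4 had 1073, 745 and 156 CPM in diet myocardia, against 42.2, 420.0 and 234 CPM in control myocardia. It was highest in 2 of 3 diet libraries, with overlap through diet library 3 (log2 fold change 1.51 ± 0.860, adjusted p = 0.722). EHHADH was the 1 member higher in every diet library, as were 6.18% of all genes. The margin was narrow, with 21.9, 24.6 and 26 CPM in diet myocardia against 18.5, 21.9 and 7.79 CPM in control myocardia (0.60 ± 0.351, adjusted p = 0.734). Atrial muscle markers summed to between 12.6 and 128 CPM of library totals in diet myocardia, against 1.88 to 3.22 CPM in control myocardia. Fibroblast markers summed to between 1340 and 2126 CPM in diet myocardia, against 2286 to 3262 CPM in control myocardia. RN18S took 7.54% of counts in diet library 1, which was highest in PDK4. It took 1.16 and 1.54% in the other diet myocardia and 1.34 to 2.22% in controls. The part of these differences was not tested.

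The diet effect was then compared between tissues as a difference of differences. For 7-week valve minus myocardium, 0.95% of all genes (0.624% higher, 0.326% lower) and 0 members were called by edgeR, and 4 members had an unadjusted p under 0.05, as did 16.3% of all genes. UCP2 had the smallest p, with a difference of 2.07 ± 0.584 (adjusted p = 0.0853). DESeq2 called it (2.10, adjusted p = 0.0197) as the 1 member, with 3.49% of all genes called. So did edgeR without myocardium control 1 (2.38, adjusted p = 0.0411), with 1.68% of all genes called. ACADM, EHHADH and PPARA were the other 3, at -1.12, -1.18 and -0.98. For valve, averaged over 2, 4 and 7 weeks, minus aorta, 0.0175% of all genes (0.0117% higher, 0.00583% lower) and 0 members were called, and 5 members had an unadjusted p under 0.05, as did 8.25% of all genes. CROT differed by 2.09 ± 0.427 (adjusted p = 0.122) and was the 1 member called by DESeq2 (2.11, adjusted p = 0.000638), with 0.371% of all genes called. The UCP2 difference was 1.29 ± 0.605 (adjusted p = 0.593). A difference of the diet effect between tissues was therefore not shown for any member by the main test.

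Genes around the pathway were taken from 7 lists of 73 genes, of which 67 were found and 66 tested in valve. In control valve 38 were lower and 9 higher than in control myocardium, against 21.5% and 23.3% of all genes. Of 8 citric acid cycle genes 7 were lower, among them OGDH (-1.96 ± 0.377) and SDHA (-1.93 ± 0.439). The peroxisomal list again split, with 3 higher and 4 lower of 10. ABCD2, a peroxisomal fatty acid transporter, was higher in valve by 3.35 ± 0.617 (adjusted p = 0.000154).

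Over control, 1 of these genes was called after any duration of diet. Among all genes 0.025% were called after 2 weeks, 2% after 4 and 7.79% after 7. The 1 gene was FABP5, a fatty acid binding protein of epidermis, adipocytes and macrophages, at 7 weeks (1.76 ± 0.343, adjusted p = 0.00961). It averaged 21 ± 7.90 CPM among controls, 15.1 ± 6.33 CPM at 2 weeks, 43.5 ± 17.6 CPM at 4 weeks and 69.5 ± 12.1 CPM at 7 weeks (SD, n = 4 each). FABP5 was also the 1 gene of these lists called for a difference in diet effect between 7-week valve and myocardium, of 2.49 ± 0.543 (adjusted p = 0.0265). Of all genes 0.95% were called there.

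At 7 over 2 weeks 20 of the 66 rose and 4 fell, against 14.5% and 12.2% of all genes. Of 11 uptake and activation genes 4 rose, led by ACSS1, the mitochondrial acetyl-CoA synthetase (2.78 ± 0.626), FABP5 (2.22 ± 0.348) and ACSL6 (1.03 ± 0.293). Of 8 citric acid cycle genes 6 rose, among them MDH2, the mitochondrial malate dehydrogenase (1.95 ± 0.497), and SDHA, a succinate dehydrogenase subunit (1.37 ± 0.446). Of 12 other mitochondrial acyl-CoA genes 4 rose, led by ECH1 (1.54 ± 0.413). ESRRA, a nuclear receptor that acts with PGC-1 alpha, and SLC25A4, an ADP/ATP carrier of muscle, each rose as the 1 gene of its list. Of 10 genes of pyruvate dehydrogenase control and ketone use, 4 rose and 3 fell, PDK3, PDP1 and PDP2 being the 3. The other gene that fell was peroxisomal HACL1 (-0.40 ± 0.128), with the other 9 of its list not called. Across valve libraries 22 of the 66 rose with the cardiomyocyte score and 0 fell, against 4.93% and 0.914% of all genes. Those that rose took in 7 of 8 citric acid cycle genes and 0 of 10 peroxisomal genes. The part of heart muscle in these changes was not tested.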

How the data were processed

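The authors deposited RSEM expected counts per gene in 4 tables: full tables of valve, ascending aorta and myocardium, and a second valve table without 346 genes. Per the labels' protocols, libraries were made with a directional kit and read as 100 bp single ends. The submitters' processing notes name RSEM 1.3.3 with STAR 2.7.8a, quality tools FastQC 0.11.9 and Trim Galore 0.6.6, and also edgeR 3.42.4. Build, annotation and strand setting: not given in the sources used here.

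Expected counts were rounded to whole numbers. Of the deposited expected counts, 10.1% were not whole in the full valve table. Genes with too few counts were removed (filterByExpr by group, minimum count 10, minimum total 15) and libraries scaled by TMM. Groups were compared with edgeR 4.0.16 in R 4.3.3 (quasi-likelihood F test, two-sided, Benjamini-Hochberg over all genes, threshold 0.05), in 1 fit per tissue and in 1 joint fit of 27 libraries for tissue comparisons. The SE is the log2 fold change divided by the square root of F. Printed CPM use the joint TMM factors, and marker shares use library totals. UCP3 did not pass the filter in aorta.

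Member genes and lists were chosen with earlier results of these data known. All members are described by role, and of each pathway list up to 3 called genes with the largest changes are named; CROT, CPT2 and PDK4 in aorta and PDK4 and EHHADH in myocardium were named after their values were seen. Some genes that this rule names are not reported here. Alternatives were other scaling, DESeq2 1.42.0, no filter, a replicate block, limma 3.58.1 voom with the animal as a block, covariates and leaving out libraries. The fits were tested on simulated data. Counts are reads, not molecules, and p-values measure the spread between animals. No 2 libraries of the same group were near-identical.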

Additional observations from a re-analysis of the deposited data

Results flagged for a closer look

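In 5 of 132 pairs of a gene and a valve group, 1 library stood apart from the other 3 by Dixon's criterion, a number close to the 1 in 20 that chance gives. ACADL was low in 2-week replicate 4, at 77.7 CPM, with the other 3 between 107.5 and 108.3 CPM. PPARGC1A was high in 2-week replicate 2, at 9.69 CPM, with the others between 3.81 and 4.14 CPM. PDK4 and UCP3 were both high in 7-week replicate 4, at 241 and 7.64 CPM, where the others ran from 53.3 to 77.9 CPM for PDK4 and from 2.48 to 2.73 CPM for UCP3. ACSL1 was high in control replicate 3, at 18.9 CPM, with the others between 2.7 and 4.95 CPM. Control replicate 3 also had the highest share of cardiomyocyte markers among controls, 4.48% of counts. The causes were not tested.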

How the results depend on the processing

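The tissue comparisons kept their directions in every alternative run. The member count stayed within 24 to 27 for control valve over myocardium, 14 to 20 for valve over aorta and at 28 for aorta over myocardium when 1 library was left out. Library totals in place of TMM moved the median of all genes to 0.38, 0.16 and 0.25 in these 3 comparisons, and calls relative to 0 were then lost for SLC25A20, ACADM, EHHADH and HSD17B4 in valve over myocardium and for ACAA1 in valve over aorta, while CROT was newly called higher in valve over myocardium and CRAT, ACADS, ECHS1 and ECI1 in valve over aorta. With the animal as a block in limma-voom, calls were lost for CPT2, PPARGC1A and UCP2 in valve over aorta and for UCP3 in aorta over myocardium.

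The counts in valve depended on the setting. At 2 weeks over control the 0 calls became 13 with DESeq2 and 7 with only the 2 groups compared, and ran from 0 to 12 without 1 library. At 4 weeks the 1 call became 0 with only the 2 groups compared and with the cardiomyocyte score, the macrophage score or the RN18S share as a covariate (the last chosen after seeing the data), and ran from 0 to 1 without 1 library. At 7 weeks it became 0 with the macrophage score and was 1 without any 1 library. At 4 over 2 weeks it became 2 with DESeq2, 0 with only the 2 groups, the macrophage score or the RN18S share, and ran from 0 to 1. At 7 over 2 weeks the 16 became 0 with either score. Without 1 library they ran from 5 to 18, while 2626 to 5608 of all genes were called. Aorta gave 1 with DESeq2 and 0 to 1 without 1 library, both differences of differences gave 1 with DESeq2, that with myocardium 0 to 1 without 1 library and that with aorta 0 to 0, myocardium and 7 over 4 weeks 0 to 0, and the slope 14 to 19.

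Signs reversed with a covariate, none of them past the threshold. In each of these comparisons the groups did not overlap in the score used, so score and group can hardly be told apart. With the macrophage score UCP2 was -0.094 at 4 weeks over control, -0.37 at 4 over 2 weeks and -0.12 at 7 over 2 weeks. With the cardiomyocyte score, at 7 over 2 weeks, CPT1B was -0.47, ACADVL -0.27, ACADS -0.27, ECHS1 -0.10, HADHA -0.17, ACAA2 -0.24, ACAT1 -0.41, ECI1 -0.086, DECR1 -0.25, ETFA -0.038, ETFDH -0.22 and PPARGC1A -0.37.

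The replicate numbers used here showed little sign of pairing: of 24 pairs between groups, 3 deviated together with a correlation over 0.1 (range -0.34 to 0.24). Control valve 4 is titled replicate 1 of 2 weeks and was numbered 4 here. Its pairs and the replicate block therefore do not follow the titles for that library. With the replicate block the member count was 0 at 4 weeks over control (UCP2 1.99, adjusted p = 0.0623 by edgeR) and 5 at 7 over 2 weeks, and 0, 1, 1 and 0 in the other valve comparisons. Over all genes this block called 3 at 4 weeks over control and 3276 at 7 over 2 weeks, and 0, 734, 299 and 9 in the others.

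Over all genes DESeq2 called 950 at 2 weeks over control (edgeR 4), 765 at 4 weeks (319), 2197 at 7 weeks (1245), 391 in aorta (23) and 303 in myocardium (12). With 2 to 4 libraries a group, low genes such as UCP3 and ACSL1 rest on few counts, and a value that missed the threshold does not show that groups were alike. The age of control valves and the sequencing runs are not given. Nor is the duration of diet in aorta and myocardium, beyond the animal numbers shared with 2-week and 7-week valves.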
